A study of Mus musculus with 10 samples.

Results

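Padi6 and 9 further maternal-effect genes were examined in single mouse embryos: Nlrp5, Nlrp14, Ooep, Tle6, Khdc3, Zbed3, Zar1, Npm2 and Btg4. The members were the probe sets for which the array's annotation gave one of these names as the single gene symbol. Of the 10 genes, 9 had such a probe set, of 16936 gene symbols in the table, and together they had 12 probe sets. Npm2 had none, so it has no value here. The genes were listed as maternal transcripts still present at embryonic day 3.0, with their levels in these embryos and the difference in Padi6 between the genotypes already known. Levels and genotype differences are therefore given for the members as a description, without a p-value. P-values are printed for members only where the array sets described below are compared, alone or in how the genotype difference varies between them.

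The 10 embryos were collected from the oviduct at 3.0 days post coitum (dpc), when the trophectoderm, the outer epithelium, is being set apart from the inner cell mass. They were 5 wild-type (WT1 to WT5) and 5 Klf5 knockout embryos (KO1 to KO5), each on its own Affymetrix array. Klf5 is a Kruppel-like zinc finger transcription factor. Strain and knockout allele are not in the labels. Litters are not named either, so every spread and p-value reflects these single embryos, which may share mothers. A level is log2(intensity + 16). A difference is the KO mean less the WT mean of such levels, and the added 16 makes it smaller than the true change where signal is dim. Probe sets differ in brightness for reasons other than transcript amount, so levels are compared between embryos and not between genes.

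The egg supplies the early embryo with RNA and protein until its own genome is switched on. Maternal-effect genes act through that store: an embryo can fail when its mother lacks the gene, whatever the embryo itself carries. Nlrp5, Ooep, Tle6 and Khdc3 encode core proteins of the subcortical maternal complex, an assembly beneath the egg's membrane that persists in the outer cells of the cleaving embryo. Padi6, a member of the peptidylarginine deiminase family, is needed for the cytoplasmic lattices, fibrous structures that fill the egg's cytoplasm. Most maternal RNA is destroyed around the first cleavages, and Btg4, which brings the CCR4-NOT deadenylase to transcripts, takes part in that clearance.

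Upstream sequences are shown for Padi6, the member whose genotypes did not overlap, and for Ooep and Khdc3, the members that varied most between embryos. They are the 250 bases before the annotated start, from RefSeq with the build GRCm38.p6, each read 5′ to 3′ on the gene's strand. The windows are chr4:140742644-140742893 on the minus strand for Padi6, chr9:78378589-78378838 on the minus strand for Ooep and chr9:73102148-73102397 on the plus strand for Khdc3. Kruppel-like factors are known to bind GC-rich sequence and the CACCC box. Capitals therefore mark every match, on either strand, to the CACCC box by its own letters or to the GC box, which was searched as GGGCGG.
Padi6: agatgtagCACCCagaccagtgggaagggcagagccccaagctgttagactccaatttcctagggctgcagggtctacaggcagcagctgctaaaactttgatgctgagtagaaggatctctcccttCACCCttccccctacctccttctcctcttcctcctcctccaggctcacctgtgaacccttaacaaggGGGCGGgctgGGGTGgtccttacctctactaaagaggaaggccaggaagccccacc
Ooep: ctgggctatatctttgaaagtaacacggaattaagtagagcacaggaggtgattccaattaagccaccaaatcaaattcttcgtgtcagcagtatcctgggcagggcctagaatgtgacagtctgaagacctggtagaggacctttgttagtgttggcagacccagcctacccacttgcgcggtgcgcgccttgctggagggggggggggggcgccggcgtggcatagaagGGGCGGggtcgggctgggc
Khdc3: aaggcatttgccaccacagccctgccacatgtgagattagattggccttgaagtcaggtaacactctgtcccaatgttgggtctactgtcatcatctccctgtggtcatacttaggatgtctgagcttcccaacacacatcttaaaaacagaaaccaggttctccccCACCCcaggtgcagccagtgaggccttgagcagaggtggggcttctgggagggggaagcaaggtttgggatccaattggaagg

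The Padi6 window held 1 GC box and 3 CACCC boxes with no overlap, the Ooep window 1 GC box and 0 CACCC boxes, and the Khdc3 window 0 GC boxes and 1 CACCC box. Over 32851 windows of this length in the table, 32.7% held a GC box and 52% a CACCC box. Windows were found for 8 of the 10 members, at 12 start sites, all but those of Nlrp14 and Npm2. Of these 12 windows, 4 held a GC box and 8 a CACCC box. The most matches were not in the Padi6 window but in a window of Tle6, with 2 GC boxes and 3 CACCC boxes, of which 1 pair overlapped. The other Tle6 window held 0 GC boxes and 2 CACCC boxes. Another pair of motifs was counted for egg regulators. The E-box CANNTG, bound by basic helix-loop-helix factors such as FIGLA, was in all 12 member windows and in 66.2% of all windows. The letters TAATTG, bound by the egg homeobox factor NOBOX, were in 1 member window, that of Ooep, and in 7.17% of all windows. These matches describe letters and not sites in use.

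Markers of the embryo's stage were read first. All 18 marker genes of trophectoderm, inner cell mass and primitive endoderm passed the level filter at their brightest probe set. The filter left out probe sets with a mean below 5.55. Sox17 lay not far above it (5.86), and its other probe set did not pass (5.39). Of the 18 markers, 1 passed the adjusted limma test, the trophectoderm keratin Krt8 (-2.94, adjusted p = 0.00118). Its partner keratin Krt18 (-2.20, adjusted p = 0.0541) and the trophectoderm factor Tfap2c (-1.37, adjusted p = 0.133) did not pass, but at their brightest probe sets KO levels lay below all WT levels, as for Padi6. The part of these marker differences in the Padi6 result was not tested. Klf5 itself had 3 probe sets, which gave different pictures. At the first the level averaged 11.31 (SD 0.84) in the wild type and 5.27 (SD 0.45) in the knockout, and the genotypes did not overlap. At the second, the one with the highest mean over all embryos, WT levels lay between 8.83 and 9.64 and KO levels between 9.46 and 10.30, with a difference of 0.71 (adjusted p = 0.248). The third was under the filter. The deleted region is not in the labels, so whether the second lies outside it is unknown. The bioB hybridisation control split the arrays into a high set (WT1, WT2, WT3, KO1 and KO2) and a low set (WT4, WT5, KO3, KO4 and KO5). At the first Klf5 probe set, WT4 (10.12) and WT5 (10.77) had the lowest Klf5 levels among WT embryos, whereas at the second WT4 was the highest of them (9.64) and WT5 was at 9.03. Differences of the tested members are therefore also given within each set and without WT4 and WT5.

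Not every listed gene passed the level filter. The filter is the 40th percentile of probe set means, so passing it does not show that a transcript was present. Some genes of cumulus, oviduct and blood cells passed it too, as given below. Of the 12 member probe sets, 8 passed the level filter, 1 for each of Padi6, Nlrp5, Nlrp14, Ooep, Tle6, Khdc3, Zbed3 and Zar1. The Btg4 probe set did not pass: its level lay between 5.23 and 5.35 in WT embryos and between 5.02 and 5.33 in KO embryos. For Zbed3, 3 of 4 probe sets did not pass (means of 4.63, 4.96 and 5.27). Closest to the filter were this last Zbed3 probe set and Btg4 (mean of 5.26) on one side and Nlrp14 (mean of 5.84) on the other. No egg or earlier embryo is among the samples, so whether the RNA of a member was carried over from the egg or made by the embryo was not measured.

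Padi6 was lower in every KO embryo than in any WT embryo. Its levels were 7.36, 7.66, 7.63, 7.62 and 7.69 in WT1 to WT5. In KO1 to KO5 they were 6.96, 6.93, 6.78, 6.95 and 7.18. The groups did not overlap, and the closest embryos were WT1 and KO5. The mean intensity was 178 ± 16.7 (SD, n = 5) for WT embryos and 109 ± 12.6 (SD, n = 5) for KO embryos. The difference was -0.63, with a standard error of 0.10 and a 95% interval of -0.86 to -0.40, or 1.55 times as much in WT embryos for the intensity with 16 added, which is less than the ratio of the intensities themselves. For RNA of a whole embryo, fewer cells that hold a transcript and less RNA in each cell cannot be told apart.

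**Figure D1:**
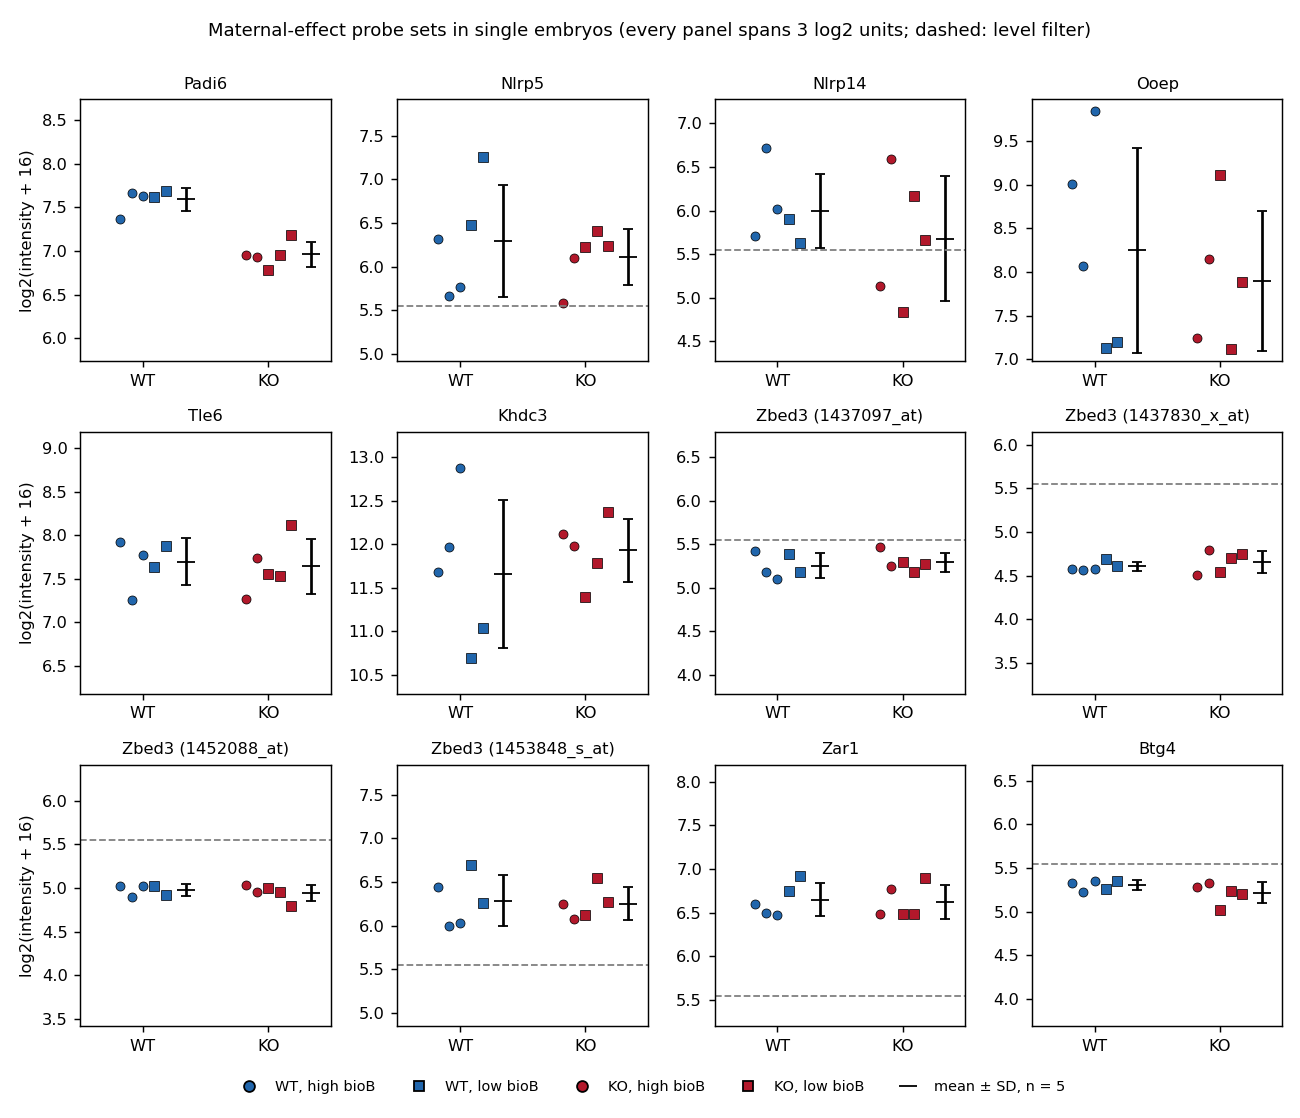
Levels of the 12 member probe sets, as log2(intensity + 16), in each WT (blue) and KO (red) embryo, with circles for the high-bioB and squares for the low-bioB arrays and bars for the mean ± SD of 5 embryos. Padi6 separates the genotypes, from 7.36 to 7.69 in WT and from 6.78 to 7.18 in KO embryos, while all other probe sets overlap, and Btg4 and 3 Zbed3 probe sets lie below the dashed level filter at 5.55.

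Of the 8 member probe sets tested, 1, that of Padi6, was called lower in KO embryos by limma with Benjamini-Hochberg adjustment over all 23174 probe sets tested, and 0 were called higher. Over all tested probe sets, 0.246% were called lower and 0.121% higher, 0.367% in all. The groups did not overlap at 1 of the 8, with KO levels below WT levels, against 1.32% of all tested probe sets in that direction and 2.33% in either. Because this contrast was known when the set was drawn up, nothing is read from these shares. The count of 1 was also found without WT1 (Padi6 difference -0.69) and without KO5 (-0.69), and it was 0 without any one of WT2, WT3, WT4, WT5, KO1, KO2, KO3 and KO4 (-0.63 to -0.59) and with the bioB set as a block (-0.64). With that block 0 of the 8 members and 0.298% of all tested probe sets were called. The Padi6 difference itself was -0.61 within the high-bioB set, -0.68 within the low-bioB set and -0.59 without WT4 and WT5. Without WT4 and WT5 the count was 0 as well.

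The core proteins of the subcortical maternal complex gave another picture. Ooep encodes a KH-domain protein, also called FLOPED. Its levels were 9.01, 8.06, 9.84, 7.13 and 7.19 in WT1 to WT5. In KO1 to KO5 they were 7.24, 8.15, 9.11, 7.12 and 7.89. The range within each genotype, 2.71 log2 units in WT and 2.0 in KO embryos, was larger than the difference of -0.35 (95% interval -1.60 to 0.90). WT3, WT1 and KO3 were high, and WT4, WT5, KO1 and KO4 were low.

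Khdc3 encodes a further KH-domain protein, FILIA, which is also made in embryonic stem cells. Its levels were 11.69, 11.97, 12.87, 10.70 and 11.04 in WT1 to WT5. In KO1 to KO5 they were 12.12, 11.98, 11.40, 11.78 and 12.37. WT3 was the highest embryo and WT4 and WT5 the lowest, while the KO embryos lay between them. The difference was 0.28 (95% interval -0.54 to 1.10), and the SD was 0.85 among WT and 0.36 among KO embryos.

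For both of these genes the direction turned with the arrays used. Within the high-bioB set the difference was -1.28 for Ooep and -0.13 for Khdc3. Within the low-bioB set, which holds WT4 and WT5, it was 0.88 for Ooep and 0.98 for Khdc3. Without WT4 and WT5 it was -1.07 and -0.25. The arrays of WT4 and WT5 were also the dimmest at the bright end of all intensities, as given with the processing. The part of this in the turn of direction was not tested. The change of the genotype difference between the sets, low minus high, was 2.15 for Ooep (standard error 0.91, adjusted p = 0.385) and 1.11 for Khdc3 (standard error 0.53, adjusted p = 0.437), in a fit added after the data were seen. In that fit 0% of tested probe sets passed and 12.6% had an unadjusted p under 0.05.

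**Figure D2:**
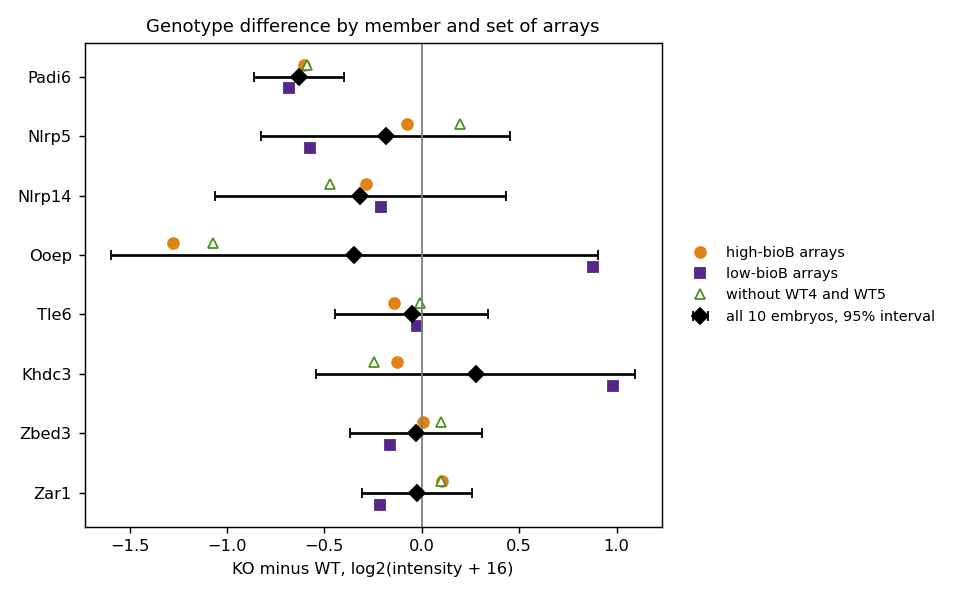
KO minus WT difference of each tested member on the log2(intensity + 16) scale (horizontal axis), over all 10 embryos with its 95% interval (black diamonds), within the high-bioB arrays (circles), within the low-bioB arrays (squares) and without WT4 and WT5 (open triangles). Padi6 lies between -0.68 and -0.59 in the 3 subsets, and Ooep runs from -1.28 to 0.88. Padi6 was chosen with its difference known, so its narrow range is no separate result.

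Nlrp5, known as MATER, is an NLR-family protein on which the complex depends. Its levels were 6.32, 5.67, 5.76, 6.48 and 7.25 in WT1 to WT5. In KO1 to KO5 they were 5.58, 6.10, 6.23, 6.41 and 6.23. WT5 was high, KO1 and WT2 were low, and the genotypes overlapped (difference -0.18, 95% interval -0.82 to 0.46). Without WT4 and WT5 the direction turned, to 0.20. A probe set annotated to the pseudogene Nlrp5-ps, whose transcripts could resemble those of Nlrp5, was likewise highest in WT5 (6.17, with the other 9 embryos between 5.34 and 5.73).

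Tle6, a relative of the Groucho corepressors that joins the complex, hardly differed in mean. WT levels lay between 7.25 and 7.92 and KO levels between 7.27 and 8.11, with a difference of -0.05 (95% interval -0.44 to 0.34). Zbed3, a BED zinc finger protein reported with the complex, had a difference of -0.03 (95% interval -0.37 to 0.31) at its tested probe set. At the other 3 Zbed3 probe sets, all under the filter, it was -0.03 to 0.05. A difference of the size measured for Padi6, -0.63, lies within the 95% intervals of Nlrp5, Nlrp14 and Ooep and outside those of Tle6, Zbed3, Khdc3 and Zar1. The Padi6 interval itself, -0.86 to -0.40, overlaps those of Tle6 and Khdc3. The added 16 also shrinks a difference more at dimmer probe sets, such as those of Zbed3 and Zar1. So this does not show that these members changed less than Padi6.

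Among the members outside the core complex, Nlrp14, a further NLR-family gene of the egg, varied widely. Its levels were 5.71, 6.71, 6.02, 5.90 and 5.63 in WT1 to WT5. In KO1 to KO5 they were 5.13, 6.59, 4.84, 6.17 and 5.67. WT2 and KO2 were high, and KO1 and KO3 lay below the filter level. The difference was -0.32 (95% interval -1.06 to 0.43). Zar1, an RNA-binding protein of the egg, lay between 6.47 and 6.92 in WT and between 6.48 and 6.90 in KO embryos, with a difference of -0.03 (95% interval -0.31 to 0.26).

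The members did not all move together from embryo to embryo, though some shared their high or low embryos. WT3 was the highest of the 10 embryos for Ooep and Khdc3 and the lowest for Zar1. WT5 was the highest for Padi6, Nlrp5 and Zar1 and among the lowest for Ooep and Khdc3. Of the 8 tested members, those above their own mean over the 10 embryos numbered 3 to 5 in each WT embryo and 1 (KO1) to 5 (KO2) in KO embryos. The median deviation over the 8 ran from -0.07 to 0.14 in WT and from -0.36 to 0.08 in KO embryos.

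**Figure D3:**
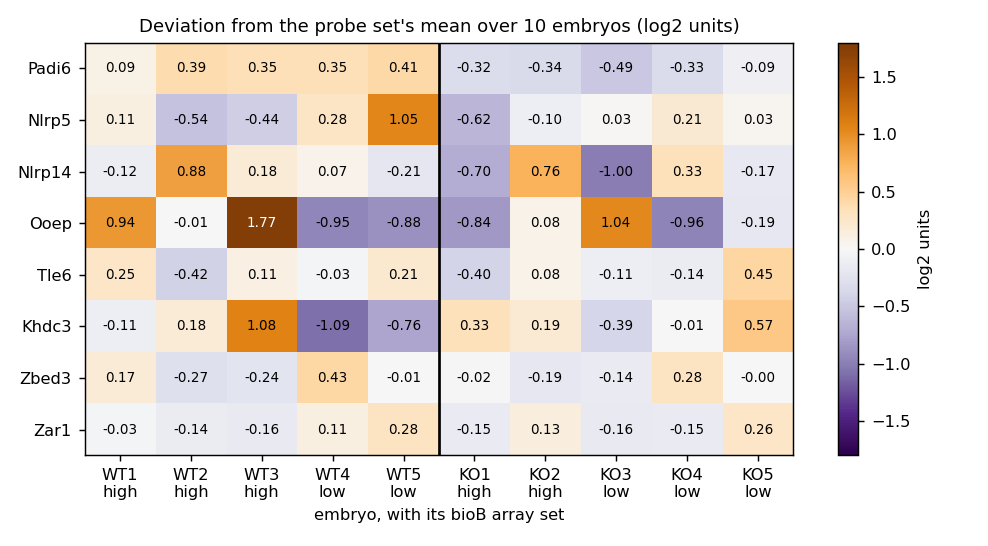
Deviation of each tested member (rows) in each embryo (columns, with the bioB array set) from that probe set's mean over the 10 embryos, in log2 units, orange above and purple below. Padi6 is above its mean in all 5 WT and below it in all 5 KO embryos, and the largest deviation is that of Ooep in WT3 (1.77).

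The spread within genotypes differed among the members. For Padi6 it is no separate result, because a small spread enters the genotype contrast that was already known. The residual SD was 0.14 for Padi6, with 15.8% of tested probe sets below it, and the median over all tested probe sets was 0.28. For Ooep it was 1.01 (99.2% below), for Khdc3 0.65 (92.1% below), for Nlrp14 0.59 (88.5% below) and for Nlrp5 0.50 (80.9% below). Tle6 (0.29), Zbed3 (0.24) and Zar1 (0.19) lay near or under the median.

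The bioB sets were defined on a spiked control and not on embryo RNA, so they allow a test that the choice of members did not use. With genotype in the fit, 0 of the 8 members passed, and 0% of all tested probe sets did. At an unadjusted limma p under 0.05 there were 2 of 8 members and 12.8% of all tested probe sets. Nlrp5 was higher in the low-bioB arrays by 0.70 (standard error 0.21, adjusted p = 0.248), and Khdc3 was lower there, at -0.76 (standard error 0.31, adjusted p = 0.356). Padi6 differed between the sets by 0.07 (standard error 0.11, adjusted p = 0.831).

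The transcripts whose levels followed Padi6 most closely over the 10 embryos are given as a description. Picked by likeness to a probe set that separates the genotypes, they all separated them too, and nothing is read from that. They were Mknk2, a kinase that acts on the cap-binding translation factor eIF4E (Pearson r = 0.957), Clec10a, a C-type lectin (0.954), Cryab, a small heat shock protein (0.952), Stn1, a telomere-capping protein (0.950), and Rab4a, a GTPase of early endosomes (0.948). They are the 5 with the highest correlation among all tested probe sets with a single symbol, over 10 embryos that share the 2 genotypes. Among the 5 KO embryos alone the correlation ran from 0.412 (Rab4a) to 0.954 (Mknk2), and among the 5 WT embryos from 0.233 (Mknk2) to 0.914 (Clec10a). Their KO minus WT differences were -0.98 (Mknk2), -1.32 (Clec10a), -3.09 (Cryab), -1.10 (Stn1) and -1.42 (Rab4a), all larger in size than that of Padi6.

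Relatives of the members were read next, from a list of paralogs. In the gene order of GRCm38.p6, Padi6 is followed by Padi4, Padi3, Padi1 and Padi2, which encode enzymes that convert arginine to citrulline in proteins. Padi2 levels were 6.48, 7.16, 6.77, 7.11 and 7.42 in WT1 to WT5. In KO1 to KO5 they were 6.59, 6.05, 6.14, 5.90 and 6.46. All KO embryos but KO1 lay below all WT embryos, and the difference of -0.76 (standard error 0.20) did not pass over all probe sets (adjusted p = 0.171). Padi3 lay between 6.15 and 7.86 in WT and between 5.62 and 7.38 in KO embryos (difference -0.34, adjusted p = 0.891), and Padi1 did not pass the level filter. Padi4 is not analysed here.

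**Figure D4:**
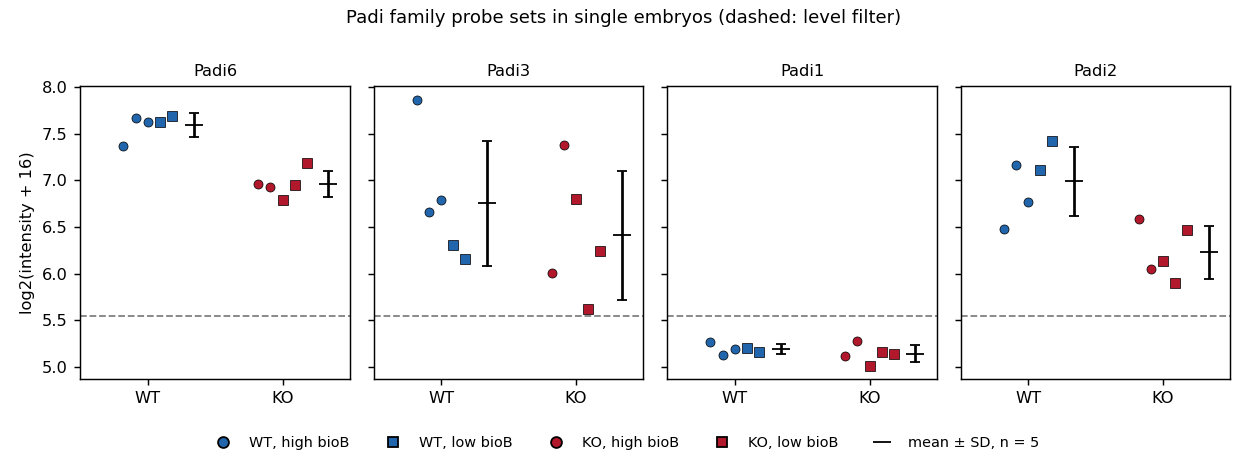
Levels of the Padi6, Padi3, Padi1 and Padi2 probe sets, in gene order, as log2(intensity + 16) in each WT (blue) and KO (red) embryo, with circles for the high-bioB and squares for the low-bioB arrays and bars for the mean ± SD of 5 embryos; brightness is not compared between genes. KO embryos lie below all WT embryos for Padi6, and all but KO1 do for Padi2, while Padi3 overlaps and Padi1 is under the dashed level filter.

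Of 43 paralogs listed, 28 were in the table and 19 passed the filter, each read at its brightest probe set. None passed the adjusted limma test, where 0.487% of all 12518 genes did. At an unadjusted p under 0.05, 3 were lower and 1 was higher in KO embryos, and 11.1% of all genes were past that level. The median difference of the paralogs was -0.001, beside -0.005 over all genes tested. The smallest p-values belonged to Nlrx1, a mitochondrial NLR protein (-0.97, adjusted p = 0.145), to Tob1 (0.56, adjusted p = 0.159), a relative of Btg4 whose WT mean of 5.29 lay under the filter level, and to Padi2. Tle3, a broadly expressed Groucho corepressor, differed by -0.87 at its brightest probe set (adjusted p = 0.435) and by -0.31 at the other tested one. Of the egg NLR genes Nlrp4c, Nlrp4e, Nlrp4f, Nlrp9a and Nlrp9b, Nlrp4c passed the filter (0.35, adjusted p = 0.723) and the other 4 did not, and probes for this family may bind transcripts of several of its genes.

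Other genes with a known maternal effect were mostly above the filter. Of 30 further maternal-effect genes, 26 were in the table and 23 passed the filter. None passed the adjusted limma test (unadjusted, 2 lower and 2 higher), and the median difference was 0.08. Over all genes tested, 0.487% passed, 11.1% had an unadjusted limma p under 0.05, and the median difference was -0.005. Ago2, the RNA-slicing Argonaute, was higher in KO embryos at all 4 of its probe sets, by 0.46 to 1.37, none of which passed (adjusted p = 0.282, 0.0607, 0.323 and 0.318 at differences of 0.46, 1.37, 0.94 and 0.83). With the bioB set as a block the probe set with the largest difference passed (1.46, adjusted p = 0.0481). At all 4 probe sets WT4 and WT5 were the lowest WT embryos, at 8.31 and 8.27 for the one with the largest difference. The part of their dimmer arrays in the Ago2 differences was not tested. Brwd1, a chromatin reader, differed by -0.54 (adjusted p = 0.150), and Ube2a, a ubiquitin-conjugating enzyme, by 0.50 (adjusted p = 0.369).

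Of 42 genes typical of the oocyte and egg, 34 were in the table and 18 passed the filter. The egg growth factor Bmp15, the meiotic kinase Mos and the translational regulator Cpeb1 did not. None of the 18 passed the adjusted limma test (unadjusted, 0 lower and 2 higher), and 9 were lower and 9 higher, with a median of -0.02. Over all genes tested, 11.1% had an unadjusted limma p under 0.05. The list's mean level lay between 6.78 and 6.95 in WT and between 6.80 and 6.95 in KO embryos. The growth factor Gdf9 (-0.19) and the zona pellucida gene Zp3 (-0.18) differed by less than Padi6. The smallest p-values belonged to Ybx2, an RNA-binding protein that packages stored egg RNA (0.86, adjusted p = 0.255), the receptor Kit (0.67, adjusted p = 0.338), whose WT mean of 5.37 lay under the filter level, and the zona gene Zp1 (0.25, adjusted p = 0.533).

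The machinery that removes maternal RNA was examined as 39 genes, of which 34 were in the table and 33 passed the filter. None passed the adjusted limma test (unadjusted, 0 lower and 2 higher), 11 were lower and 22 higher, and the median was 0.09. Over all 12518 genes tested, 6413 were lower and 6105 higher, with 719 and 670 at an unadjusted limma p under 0.05. The 2 unadjusted higher genes were Pabpc1 and Tob1, whose WT mean of 5.29 lay under the filter level. Nothing is read from these counts. After Tob1 the smallest p-values were those of Pabpc1, the cytoplasmic poly(A)-binding protein (0.32, adjusted p = 0.446), and Cnot4, a ubiquitin ligase of the CCR4-NOT complex (-0.49, adjusted p = 0.547). Of 26 genes of the activation wave at the 2-cell stage, 11 were in the table and 5 passed the filter. None passed the adjusted limma test (unadjusted, 1 lower and 0 higher), and the smallest p-values belonged to Sp110 (-1.65, adjusted p = 0.144), Zfp809 (-0.60, adjusted p = 0.718) and Zfp352 (0.04, adjusted p = 0.975).

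Markers of cells that could cling to an embryo were also read. Of 14 cumulus and granulosa genes 7 passed the filter, of 10 oviduct genes 5, and of 10 blood and immune genes 5, and none of these passed the adjusted limma test (unadjusted, 0, 0 and 1). Over all genes tested, 0.487% passed and 11.1% had an unadjusted limma p under 0.05. The list means lay between 5.90 and 6.24 in WT and 5.94 and 6.29 in KO embryos for cumulus and granulosa, between 6.28 and 6.62 in WT and 6.27 and 6.52 in KO embryos for oviduct, and between 6.29 and 6.57 in WT and 6.21 and 6.71 in KO embryos for blood. Of the 5 blood and immune genes tested, 3 were lower and 2 higher in KO embryos. Cd52, a surface protein of lymphocytes, was lower in every KO embryo than in any WT embryo (-0.47, adjusted p = 0.129). Its part in the Padi6 result was not tested.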

How the data were processed

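cDNA was made from each of 10 single embryos by a published protocol (Kurimoto and colleagues) and hybridised with a biotin label, per the labels' protocols. The authors used GeneSpring GX, per the series' design text. The deposited values are linear intensities, judging by their range, with 1 value for each probe set on an array. How background was corrected, probes summarised and arrays scaled is not given in the sources used here. Array medians lay between 39.9 and 43.5, and the number of arrays limits the precision. An upper percentile of all intensities, which describes the bright end of an array, was lowest in WT4 (420) and WT5 (424). In the other arrays it lay between 470 (KO1) and 550 (WT2), and in KO3, KO4 and KO5 of the low-bioB set between 491 and 515. The part of this array-wide difference in the member levels of WT4 and WT5 was not tested. Names came from the platform's annotation.

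Intensities were transformed as log2(intensity + 16). Controls (53) and probe sets with a mean below the 40th percentile were left out, which left 23174 of 38676. The genotype comparison used limma (version 3.58.1, R 4.3.3) without covariates, with two-sided moderated tests adjusted by Benjamini-Hochberg over all tested probe sets at 0.05. The script was tested on simulated data. The bioB set was a term in further fits. Each list gene was represented by its brightest tested probe set. Alternatives varied normalization, filter, pseudocount, fit, blocks and embryos.

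The members, lists and tests were chosen with earlier results of these data known. Named are all members, the 3 genes of smallest p in each of the maternal-effect, egg, clearance, paralog and 2-cell lists, genes of these lists that pass, and the 5 probe sets most correlated with Padi6. Other list genes named (Padi1, Padi3, Tle3, the Nlrp4 and Nlrp9 genes, Bmp15, Mos, Cpeb1, Gdf9, Zp3, Krt8, Krt18, Tfap2c and Cd52) and Nlrp5-ps were chosen after their values were seen. Cdx2, Eomes and Gata3 are given as the other trophectoderm markers. Padi4 was named only for its place in the gene order.

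Embryo numbers are shared by the genotypes, but no label says that they pair embryos. The deviations of same-numbered embryos correlated at -0.03 to 0.18, and those of WT and KO embryos with different numbers at -0.23 to 0.17.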

Additional observations from a re-analysis of the deposited data

Results flagged for a closer look

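Padi6 in WT1 stood apart from the other WT embryos: its level was 7.36, and the other 4 lay between 7.62 and 7.69. Of the 16 groups examined (8 member probe sets in 2 genotypes), it was the only one with such a gap. Chance gives such a gap in about 1 of 20 groups, so 1 in 16 is close to that rate. WT1 was the WT embryo nearest to the KO levels, and without it the Padi6 difference was -0.69.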

How the results depend on the processing

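The Padi6 difference was negative under all 23 alternatives, from -0.70 (pseudocount 1) to -0.48 (pseudocount 64). Padi6 was chosen with this difference known, so how often it was called does not measure how robust it is. The count of members called, 1 by the chosen settings, was 0 with quantile normalization, with an intensity trend and robust prior, with the bioB set as a block, without WT4 and WT5 and within either bioB set alone. It was 0 to 1 when single embryos were left out. With the embryo number as a replicate block, 0 members and 24 probe sets were called, against 85 without the block. WT embryos deviated most like the KO embryo of their own number in 2 of 5 cases. The 85 became 1 within the high-bioB and 0 within the low-bioB set, and 45 to 63 when single embryos were left out. The directions of Zar1, Zbed3, Tle6, Nlrp5, Ooep and Khdc3 turned under some alternatives, and those of Padi6 and Nlrp14 under none of those run. At brightest probe sets, no gene of the maternal-effect, egg, clearance, paralog and 2-cell lists passed under any alternative run, and neither did a member in the comparison of bioB sets.

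Depth cannot be read from arrays. Probe sets near or under the filter level, such as those of Btg4, Nlrp14 and 3 of Zbed3, cannot show a small change.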
